A study of Rattus norvegicus with 5 samples.

Results

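The genes described here carry fatty acids into cells and hold, activate or bind them there: the fatty acid binding proteins Fabp3, Fabp4 and Fabp5, the scavenger receptor Cd36, lipoprotein lipase (Lpl), the long-chain acyl-CoA synthetases Acsl1, Acsl3, Acsl4 and Acsl5, and the fatty acid transport protein Slc27a1. They were taken by name, with every probe set annotated with exactly 1 of these symbols. This gave 10 genes and 13 probe sets, of 14217 genes named by a single symbol and 31042 probe sets other than controls on the array. A further probe set annotated with Cd36 and a second symbol was left out.

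Fat of the mesentery that surrounds the pancreas (pMES) was taken from individually housed male Wistar rats that were 7 weeks old when the diets began. The standard group, 3 samples, ate standard chow in which fat supplied 8% of the calories. The cafeteria group, 2 samples, ate a cafeteria diet in which fat supplied 66%, and both diets lasted 30 days. The labels call the groups lean and obese and the samples independent, and do not say whether a sample came from 1 rat or several. They name no gene alteration or drug, so the groups differ by diet alone as labelled, and in what the diets differ beyond the fat share is not given in the sources used here. Each sample was hybridised to 1 Affymetrix GeneChip rat genome array.

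Fat cells take up most of their fatty acids from triglyceride carried in blood lipoproteins. Lipoprotein lipase, made by the fat cell and held on the wall of the capillary, frees the fatty acids; Cd36 and Slc27a1 help them across membranes; acyl-CoA synthetases attach coenzyme A, which commits them to storage or oxidation; and the small cytosolic binding proteins carry them through the cell. Fabp4 is the abundant form of fat cells and is also made by macrophages and capillary endothelium, Fabp5 is shared by fat cells, macrophages and epithelia, and Fabp3 is best known from heart and oxidative skeletal muscle.

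Values are log2 expression levels, so a difference of 1 is a doubling. The arrays had medians between 5.70 and 5.75. Probe sets with a mean above a level of 4.28, the 30th percentile, were tested, and there were 21729 of them. The tissue label fitted the fat cell markers: all 14 of those on the array passed this filter, and their mean level lay between 11.30 and 11.91 on the 5 arrays. Standard replicate 1 stood apart through transcripts of acinar cells, which make the digestive enzymes of the adjacent pancreas. The mean level of 22 acinar genes was 7.46 there and 4.29 to 4.50 on the other arrays. Results that this array moved by more than 1.5 times are given with and without it.

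Of the 10 genes, Fabp3 had by far the largest difference, 3.25-fold higher in cafeteria fat, with Acsl1 and Acsl3 next. Of the probe sets, 12 passed the filter, and the third and dimmest Acsl1 probe set did not. None of the 12 had a limma p under 0.05 after Benjamini-Hochberg adjustment (range 0.195 to 0.813), and neither did any other probe set, 0% of those tested. Before adjustment, 5 probe sets of 4 genes were higher in cafeteria fat at p under 0.05 (Fabp3, Lpl, Acsl3 and Acsl1 by 2 probe sets) and 0 were lower. Over all probe sets tested, 6.05% were higher and 6.62% lower at that level. Leaving out standard replicate 1 kept the count at 5, where 4.46% of all probe sets were then higher at that level. Leaving out cafeteria replicate 2 reduced it to 2, Fabp3 and the brightest Acsl1 probe set, where 6.99% of all were higher. By the brightest probe set of each gene, 6 genes were higher in cafeteria fat and 4 lower, where 48.7% of all probe sets tested were higher, with a median difference of 0.20 against -0.0036 over all probe sets tested. That median was 0.06 without cafeteria replicate 2, with 5 genes higher and 5 lower, and 0.31 without cafeteria replicate 1. For 5 genes both cafeteria arrays lay above all standard arrays, which held for 13.3% of probe sets tested. For 1 gene, Acsl5, they lay below, as did 14.1% of probe sets.

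**Figure D1:**
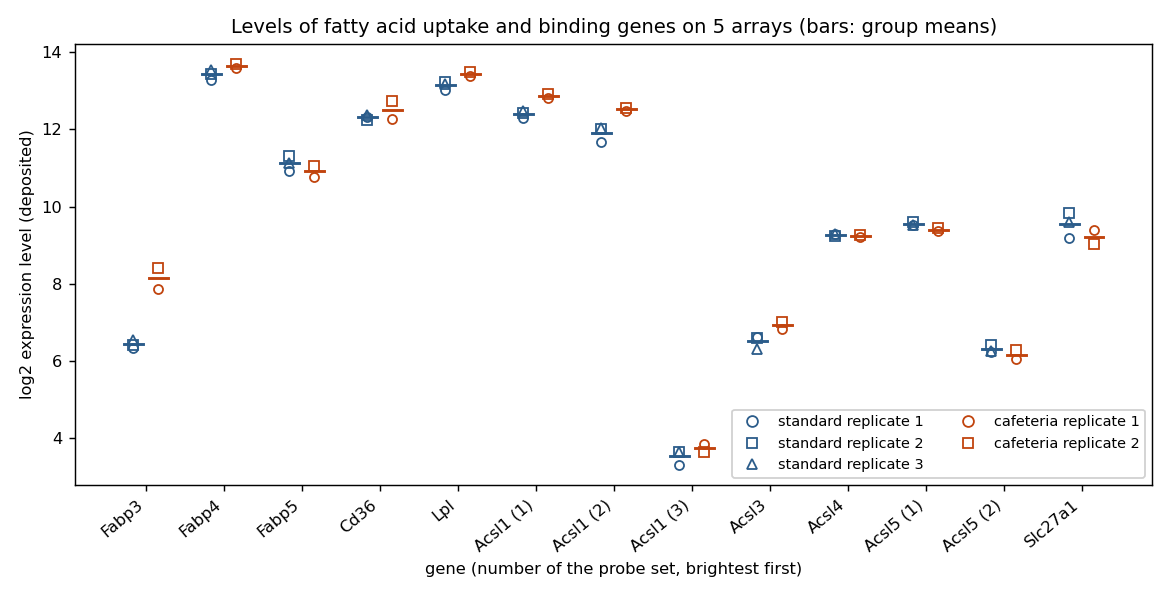
Deposited log2 expression level (vertical axis) of each of the 13 probe sets (horizontal axis) on each of the 5 arrays, with standard arrays in blue, cafeteria arrays in orange and short bars at the group means. The Fabp3 points of the cafeteria arrays, 7.87 and 8.42, stand clear of the standard arrays, while most other genes differ little between diets relative to their distance from one another.

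Fabp3 read 6.34, 6.43 and 6.56 on standard replicates 1, 2 and 3, and 7.87 and 8.42 on cafeteria replicates 1 and 2. The lowest cafeteria array thus stood 1.31 above the highest standard array, and the cafeteria arrays were further from each other than the standard arrays were. The difference was 1.70 ± 0.19 (SE), with a 95% interval of 1.20 to 2.20, or 2.30-fold to 4.59-fold. Only 6 of the 21729 probe sets tested had a larger rise in mean, and 50 had a smaller p, but with 2 and 3 arrays this did not reach the threshold (limma, adjusted p = 0.195). Its two-sided p by exact permutation was 0.1, and 10 possible splits of 5 samples permit none smaller. Left out in turn, the arrays gave 1.42 (without cafeteria replicate 2) to 1.98 (without cafeteria replicate 1), and 1.65 without standard replicate 1.

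The DNA before 1 listed start of Fabp3 and 1 of Acsl1 is shown because these genes had the largest differences. Each sequence is the 250 bases before a transcription start, 5′ to 3′ on the gene's strand, from the RefSeq promoter table for build GRCr8. The Fabp3 window lies at chr5:147935875-147936124, plus strand, before a start downstream of the gene's first annotated one, and holds 1 match to the TATA-like motif TATTTA, 35 bases before the start, in capitals. The Acsl1 window lies at chr16:52532393-52532642, minus strand, at a start inside the annotated gene. It holds 1 match to CCAAT, 95 bases before the start, on the opposite strand and so in capitals as ATTGG.
Fabp3: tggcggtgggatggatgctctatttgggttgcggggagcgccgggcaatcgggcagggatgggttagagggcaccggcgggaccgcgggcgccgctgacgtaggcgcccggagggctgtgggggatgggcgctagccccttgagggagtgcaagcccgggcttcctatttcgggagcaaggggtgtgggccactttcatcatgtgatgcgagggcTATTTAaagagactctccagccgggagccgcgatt
Acsl1: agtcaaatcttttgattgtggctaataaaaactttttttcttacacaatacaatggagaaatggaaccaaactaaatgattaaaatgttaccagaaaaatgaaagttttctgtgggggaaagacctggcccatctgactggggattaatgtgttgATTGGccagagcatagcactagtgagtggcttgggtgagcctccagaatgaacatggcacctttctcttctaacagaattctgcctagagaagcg

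The 2 windows differ in base composition, 65.6% G and C for Fabp3 and 40% for Acsl1, whose window is at a start inside the gene. The table held 7 of the 10 genes, without Fabp4, Fabp5 and Lpl. In windows of the same length, on either strand, TATTTA was found for Fabp3 alone of the 7 and in 13.4% of all 33469 windows, and CCAAT for Acsl1, Acsl3 and Slc27a1 and in 34.0% of all. TATAAA was present for Cd36 and Acsl5 and in 12.9% of all. The nuclear receptor half-site AGGTCA was present for Slc27a1 and in 14.1% of all. The direct repeat of that half-site with 1 base between the copies, the form bound by peroxisome proliferator-activated receptors, was found in 0 of the 7 windows and in 0.051% of all. These are matches of letters only.

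Fabp4 was among the brightest signals of the array, brighter than 99.96% of probe sets. It read 13.29, 13.44 and 13.54 on the standard arrays and 13.58 and 13.70 on the cafeteria arrays. The groups did not overlap, but the gap was only 0.04. The difference was 0.21 ± 0.10, a 1.16-fold higher level, with an interval from -0.04 to 0.47 (limma, adjusted p = 0.454), and 0.15 without standard replicate 1.

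Fabp5 read 10.92, 11.30 and 11.14 on the standard arrays and 10.77 and 11.06 on the cafeteria arrays, so the groups overlapped. Its mean was lower in cafeteria fat by -0.21 ± 0.15, with an interval from -0.61 to 0.20 (limma, adjusted p = 0.548). The size depended on the cafeteria array used: -0.06 without replicate 1 and -0.35 without replicate 2, and it was -0.12 without standard replicate 2 and -0.31 without standard replicate 1.

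The comparison of Fabp3 with Fabp4 and Fabp5 asked whether the binding proteins shifted by unequal amounts with diet. For this the difference between the log2 levels of 2 genes was taken within each array. It was set against its mean over the standard arrays, which cancels a constant offset between their probe sets. An unequal response of bright and dim probe sets is not cancelled and was not tested. Fabp4 was brighter than 99.96% of probe sets and Fabp3 brighter than 67.6%. Fabp3 relative to Fabp4 was 1.27 and 1.71 on the cafeteria arrays and 0.04, -0.03 and -0.0031 on the standard arrays. On standard chow both genes therefore kept nearly the same ratio in the 3 samples (SD 0.03), although both were lowest on replicate 1 and highest on replicate 3. The diet differences of the 2 genes were 1.49 apart, a 2.81-fold shift of the ratio (exact permutation test, two-sided, p = 0.1, the smallest possible).

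Fabp3 relative to Fabp5 was 1.77 and 2.04 on the cafeteria arrays and 0.11, -0.20 and 0.09 on the standard arrays. The shift was 1.91, or 3.75-fold (exact permutation test, two-sided, p = 0.1). In both comparisons all cafeteria arrays lay above all standard arrays, and no array left out brought the shift below 1.27 for Fabp4 or 1.77 for Fabp5. These were the 2 comparisons made; their p cannot be lower in this design, with or without adjustment over the pair. Such a ratio describes unequal change in these 5 samples, which this test could not bring under 0.05, and does not tell which gene stayed constant.

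**Figure D2:**
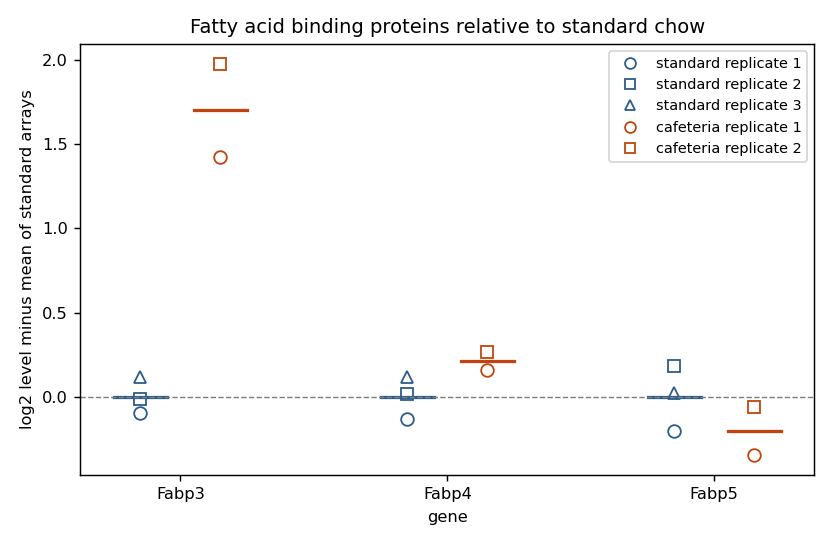
Log2 level of Fabp3, Fabp4 and Fabp5 minus the mean of that gene on the 3 standard arrays (vertical axis), for each array, with bars at the group means. The cafeteria mean is 1.70 above the standard mean for Fabp3, 0.21 above for Fabp4 and 0.21 below for Fabp5.

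The genes whose pattern over the 5 arrays was most like that of Fabp3 were found by the Euclidean distance between log2 values centred on each probe set's mean. The nearest 5 were Sync, an intermediate filament protein, at 0.26, Ldb3, a protein of the muscle Z-disc, at 0.43, the galectin-related Grifin at 0.48, the myosin light chain Myl4 at 0.54, and the mitochondrial aldolase Hoga1 at 0.57. Their diet differences were 1.69 for Sync, 1.49 for Ldb3, 1.83 for Grifin, 1.95 for Myl4 and 1.26 for Hoga1. Other probe sets of the same genes did not all share the pattern: a second Sync probe set differed by 0.25, and the other Ldb3 probe sets lay between -0.04 and 1.20. The arrays are few and the genes were picked for likeness, so this is a description.

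Because Fabp3 is a gene of striated muscle and of thermogenic fat, the markers of both are given beside it. Of 23 striated muscle genes on the array, 14 lay below the filter, and the mean level of all 23 was 4.58 and 4.65 in cafeteria fat and 4.479 to 5.002 in standard fat, so the groups overlapped. Muscle creatine kinase (Ckm) averaged 3.94 in cafeteria and 4.27 in standard samples, and myoglobin (Mb) 3.94 and 3.72, all below the filter level. Of the 9 muscle genes tested, 5 were higher and 4 lower. Myh1, a fast myosin heavy chain, had the smallest p, at 0.37 ± 0.13, and 0.23 without cafeteria replicate 2. Its probe set averaged 10.65 in cafeteria and 10.28 in standard samples, far above Ckm and Mb. The largest differences were negative, Acta1 at -1.27 ± 0.93 and Des at -1.24 ± 0.88. Both genes read highest on standard replicate 3, the array with the list mean of 5.002. The list does not hold the muscle genes Ldb3 and Myl4, picked above for likeness to Fabp3, which were higher by 1.49 and 1.95. The part of muscle cells in the Fabp3 values was not tested.

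Of 15 brown and beige fat genes, 7 lay below the filter, the uncoupling protein Ucp1 among them, at 3.61 in cafeteria and 3.65 in standard samples. The other 8 had 7 higher and 1 lower in cafeteria fat, with a median difference of 0.29, and of 0.13 without standard replicate 1. The lipid droplet protein Cidea differed by 0.30 ± 0.17, and by 0.15 without standard replicate 1, and the carnitine transferase Cpt1b by 0.47 ± 0.13. The mean level of all 15 overlapped between groups, at 5.34 and 5.45 against 5.17 to 5.39.

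Lpl read 13.02, 13.23 and 13.18 on the standard arrays and 13.39 and 13.49 on the cafeteria arrays. Both cafeteria arrays were higher than every standard array, the gap being 0.16, and the signal was brighter than 99.9% of probe sets. The difference was 0.30 ± 0.09, a 1.23-fold higher level, with an interval from 0.07 to 0.53 (limma, adjusted p = 0.321), and 0.24 without standard replicate 1.

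Genes that anchor, mature, cleave, activate or inhibit lipoprotein lipase, with the lipoprotein receptors of fat, numbered 16 on the array, of which 12 were tested. Of these, 8 were higher and 4 lower in cafeteria fat, with a median difference of 0.12 and 0 past the adjusted threshold. With an unadjusted p under 0.05, 2 were higher and 0 lower, beside 6.05% and 6.62% of all probe sets. Without standard replicate 1, or without standard replicate 3, 1 was higher, beside 4.46% and 4.73% of all probe sets. The lipoprotein receptor Vldlr differed by 0.62 ± 0.15, and by 0.39 without cafeteria replicate 2. The proprotein convertase Pcsk6 differed by 0.54 ± 0.15, and by 0.31 without cafeteria replicate 1.

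Angptl8 and Angptl4, secreted regulators that restrain the lipase, were also higher in both cafeteria arrays than in all standard arrays, as were 13.3% of probe sets tested. For Angptl4 the groups nearly touched, at 11.88 on cafeteria replicate 1 and 11.87 on standard replicate 3. Angptl8 differed by 0.74 ± 0.33 and Angptl4 by 0.52 ± 0.25 (limma, adjusted p = 0.454 and 0.472). Angptl4 gave 0.34 without standard replicate 1 and 0.30 without cafeteria replicate 2. Lpl and these regulators of its activity were thus all higher in mean in cafeteria fat, and none passed the test.

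Cd36, the main surface receptor for long-chain fatty acids in fat cells, separated the cafeteria samples. It read 12.27 and 12.74 on cafeteria replicates 1 and 2, and 12.32, 12.24 and 12.38 on the standard arrays. Cafeteria replicate 1 thus lay among the standard arrays and replicate 2 above them all. The difference was 0.19 ± 0.15, with an interval from -0.22 to 0.60 (limma, adjusted p = 0.574), and it turned to -0.04 without cafeteria replicate 2 and was 0.42 without cafeteria replicate 1. The rat genome carries Cd36-like genes beside Cd36, so part of the signal may come from them.

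Capillary endothelium also makes Cd36, and endothelial markers separated the cafeteria arrays in the same order. The mean level of 15 endothelial genes was 8.36 on cafeteria replicate 1, 8.90 on cafeteria replicate 2 and 8.89 to 9.06 on the standard arrays. Of the 15, 14 were lower in cafeteria fat, with Sox17 at -0.76 ± 0.12, Egfl7 at -0.65 ± 0.12 and Emcn at -0.47 ± 0.12. Without cafeteria replicate 1, 9 of the 15 were lower and 6 higher, the median went from -0.38 to -0.17, and Emcn was -0.29. Without cafeteria replicate 2 the median was -0.65. Fat cell markers, at 11.71 and 11.91 on cafeteria replicates 1 and 2, had the same order. Macrophage genes, at 9.64 and 9.34, had the opposite order. So did 8 mesothelial genes, at 9.62 and 8.75, with 9.03 to 9.23 on the standard arrays. The part of any of these cells in the Cd36 values was not tested. In a piece of tissue, fewer cells of a type and less RNA per cell cannot be told apart.

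Slc27a1, a transport protein of fat and muscle that responds to insulin, read 9.18, 9.84 and 9.60 on the standard arrays and 9.39 and 9.03 on the cafeteria arrays. The groups overlapped, and the standard arrays spread over more than the difference between the means. That difference was -0.33 ± 0.24, with an interval from -0.96 to 0.30 (limma, adjusted p = 0.538). It ranged from -0.15 without cafeteria replicate 2 and -0.18 without standard replicate 2 to -0.51 without cafeteria replicate 1 or standard replicate 1.

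**Figure D3:**
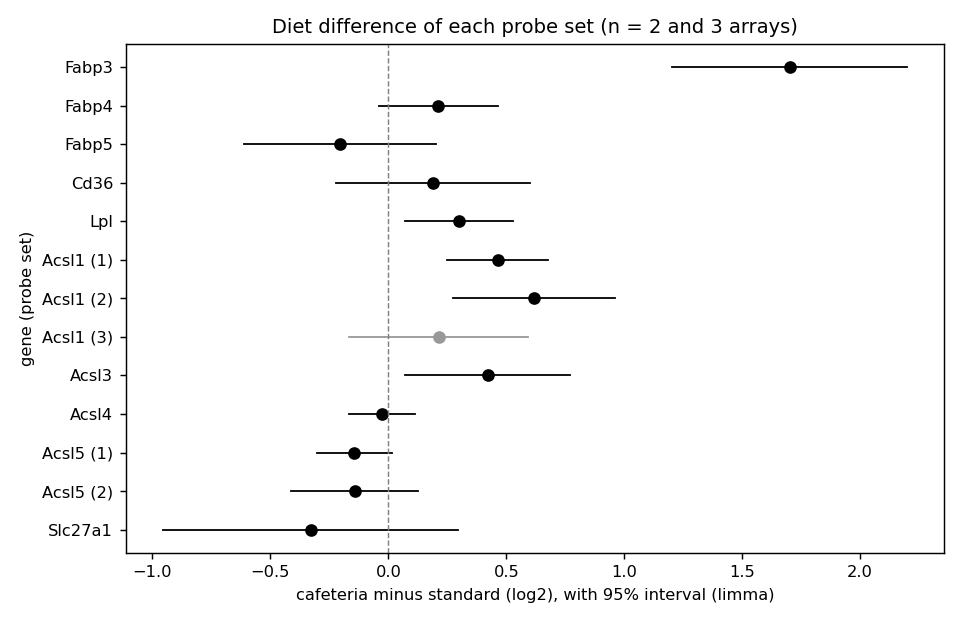
Cafeteria minus standard difference (horizontal axis, log2) of each probe set with its 95% interval from limma, in the order of the gene groups. The probe set that did not pass the filter is grey, and its values come from the fit without a filter. The intervals of Fabp3, Lpl, Acsl3 and the 2 brighter Acsl1 probe sets lie above 0, without adjustment for the number of probe sets.

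Acsl1, the main acyl-CoA synthetase of fat cells, was measured by 3 probe sets. The brightest read 12.31, 12.43 and 12.49 on the standard arrays and 12.82 and 12.93 on the cafeteria arrays. The second read 11.69, 12.02 and 12.03 against 12.49 and 12.57. In both, the cafeteria arrays lay close together and above all standard arrays, by 0.33 and 0.46.

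The differences were 0.46 ± 0.08 for the brightest Acsl1 probe set, a 1.38-fold higher level, and 0.62 ± 0.13 for the second, 1.53-fold (limma, adjusted p = 0.246 and 0.271). They stayed between 0.41 and 0.52, and between 0.51 and 0.68, whichever array was left out. The third Acsl1 probe set was below the filter on the mean, at 3.65 in 2 standard arrays and 1 cafeteria array alike. It gave 0.21 ± 0.14 without the filter.

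Acsl3, a synthetase of the endoplasmic reticulum and of growing lipid droplets, read 6.62, 6.61 and 6.30 on the standard arrays and 6.83 and 7.03 on the cafeteria arrays. The groups did not overlap, with a gap of 0.22. The difference was 0.42 ± 0.13, 1.34-fold, with an interval from 0.07 to 0.77 (limma, adjusted p = 0.341), and 0.32 both without cafeteria replicate 2 and without standard replicate 3.

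Acsl4, which prefers arachidonic acid, was the most even of the genes. It read 9.28, 9.24 and 9.29 on the standard arrays and 9.21 and 9.28 on the cafeteria arrays, a range of 0.08 over all 5. The difference was -0.03 ± 0.05, with an interval from -0.17 to 0.11, and 0.01 without cafeteria replicate 1. As a ratio of cafeteria to standard the interval runs from 0.89 to 1.08.

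Acsl5, a synthetase of mitochondria and endoplasmic reticulum, was lower in cafeteria fat by both of its probe sets. The brighter read 9.52, 9.61 and 9.52 on the standard arrays and 9.37 and 9.44 on the cafeteria arrays, which lay below them all by 0.08. The dimmer read 6.25, 6.41 and 6.27 against 6.05 and 6.29, and overlapped. The differences were -0.14 ± 0.06 and -0.14 ± 0.10 (limma, adjusted p = 0.431 and 0.534), and the dimmer gave -0.02 without cafeteria replicate 1, -0.26 without cafeteria replicate 2 and -0.09 without standard replicate 2.

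The 4 synthetases thus gave values on both sides of 0, with Acsl1 and Acsl3 higher, Acsl4 nearly level and Acsl5 lower in mean. Differences between them were not tested.

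**Figure D4:**
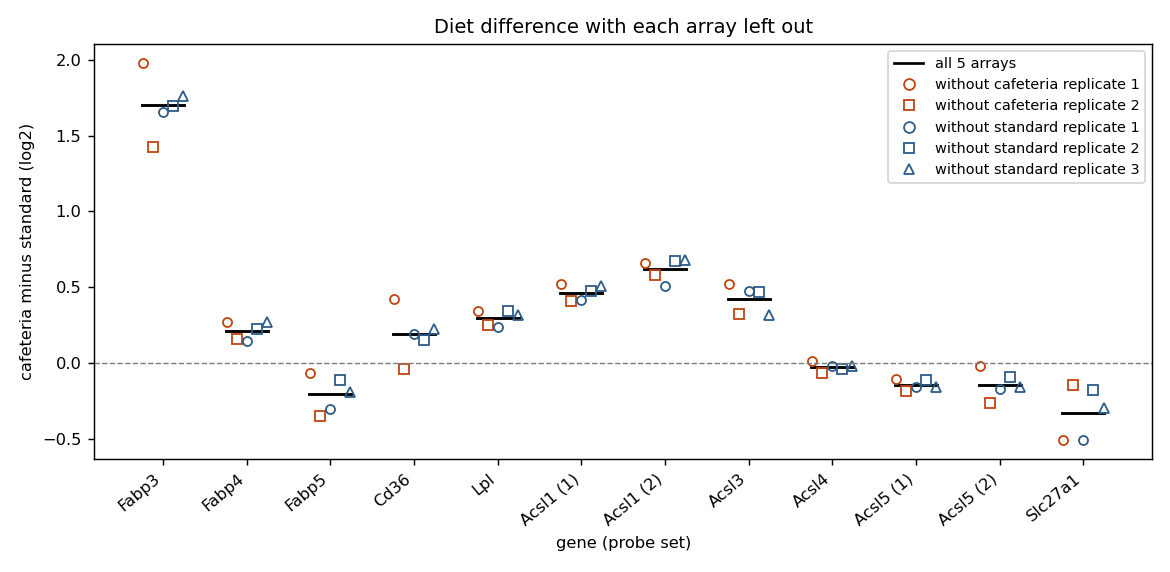
Cafeteria minus standard difference (vertical axis, log2) of the 12 probe sets tested, with all 5 arrays (bar) and with each array left out (points). Fabp3 stays between 1.42 and 1.98, and Cd36 and Acsl4 are the genes whose points fall on both sides of 0.

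Several of these genes are made chiefly by fat cells, so the fat cell markers are given beside them. The mean level of 14 markers outside the 10 genes was 11.71 and 11.91 on the cafeteria arrays and 11.30, 11.53 and 11.50 on the standard arrays, lowest on standard replicate 1. Of the 14, 12 were higher and 2 lower in cafeteria fat, with a median difference of 0.34 over all arrays and 0.24 without standard replicate 1. Among them, the hormone leptin (Lep) differed by 1.59 ± 0.20, Plin4 of the lipid droplet coat by 0.84 ± 0.15 and the secreted protease Cfd by -0.40 ± 0.07. Standard replicate 1 was also the lowest array for Fabp3, Fabp4, Lpl and both brighter Acsl1 probe sets, and without it they kept positive differences, given above. The part of fat cell content in these values was not tested.

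Macrophages make Fabp4, Fabp5, Cd36 and Lpl as well. The mean level of 15 macrophage genes was 9.64 and 9.34 on the cafeteria arrays and 9.45 to 9.90 on the standard arrays, with 14 of 15 lower in cafeteria fat, 12 of 15 without standard replicate 1 and 11 of 15 without cafeteria replicate 2. The galectin Lgals3 differed by -0.42 ± 0.12, the lipid receptor Trem2 by 0.40 ± 0.12 and C1qa by -0.36 ± 0.17. Trem2 gave 0.24 without cafeteria replicate 1, and C1qa -0.56 and -0.16 without cafeteria replicates 1 and 2. Their part in the values above was not tested.

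**Figure D5:**
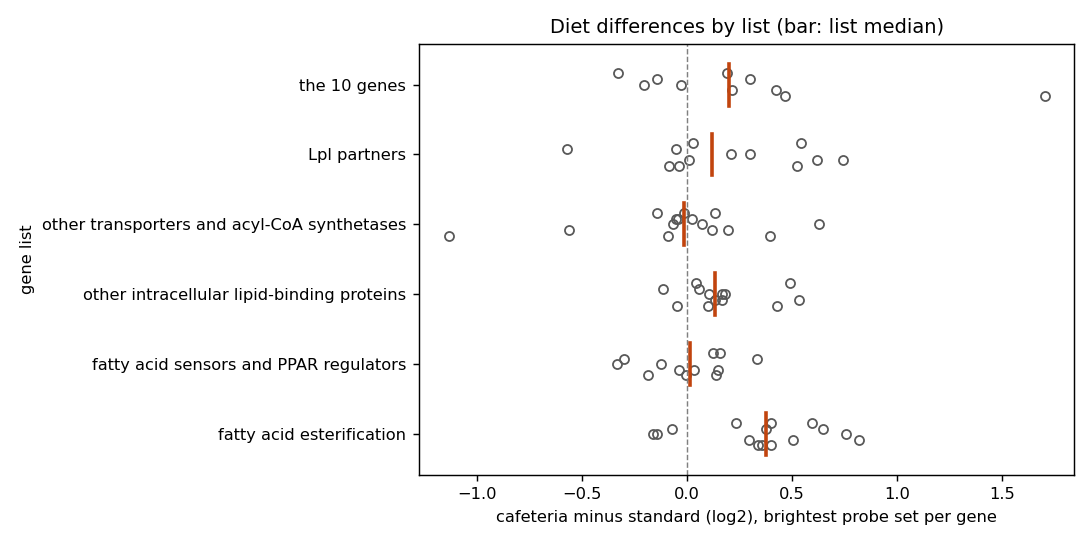
Cafeteria minus standard difference (horizontal axis, log2) of each gene that passed the filter, by its brightest probe set, in the 10 genes and in 5 further lists of fatty acid handling, with a bar at each list's median. The highest list median is that of fatty acid esterification, 0.37, and the point at 1.70 is Fabp3.

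Genes of fatty acid esterification, which build triglyceride from acyl-CoA and glycerol phosphate, were listed together with genes of glycerol handling such as Aqp7. This list had the highest median of the lists of fatty acid handling. It shares Gpd1 and Pck1 with the fat cell markers, whose median was 0.34, and Gk with the brown and beige fat genes. Of 15 tested, 12 were higher and 3 lower in cafeteria fat, with a median difference of 0.37, and 0 passed the adjusted threshold. At an unadjusted p under 0.05 there were 7 higher and 0 lower, and for 10 of the 15 both cafeteria arrays lay above all standard arrays. Over all probe sets 6.05% were higher and 6.62% lower at that p, and 13.3% had both cafeteria arrays above all standard arrays. Without standard replicate 1, 12 were still higher, with a median of 0.28, and 4 had an unadjusted p under 0.05, against 4.46% of all probe sets. That number was 1 without cafeteria replicate 2, 2 without standard replicate 3 and 4 without cafeteria replicate 1. The glycerol channel Aqp7 differed by 0.37 ± 0.09, glycerol kinase (Gk) by 0.50 ± 0.14, glycerol phosphate dehydrogenase (Gpd1) by 0.59 ± 0.17 and the phosphatidate phosphatase Lpin2 by 0.82 ± 0.24. Lpin2 gave 0.45 without cafeteria replicate 2.

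Of the other cytosolic lipid-binding proteins, acyl-CoA binding proteins and thioesterases, 22 were on the array and 13 passed the filter. Fabp1, Fabp2, Fabp6, Fabp7, Fabp9 and Fabp12 did not pass it. Of the 13, 11 were higher and 2 lower, with a median of 0.13, and 2 were higher at an unadjusted p under 0.05, beside 6.05% of all probe sets. This became 1 without standard replicate 1 or standard replicate 2, and 0 without standard replicate 3, beside 4.46% to 4.73% of all probe sets. The median was 0.07 without cafeteria replicate 2. The acyl-CoA binding protein Dbi differed by 0.43 ± 0.13, the thioesterases Acot7 by 0.17 ± 0.06 and Acot8 by 0.18 ± 0.09, and Acbd6 by -0.12 ± 0.05 (limma, adjusted p from 0.336 to 0.485). Acot8 gave 0.28 and 0.08 without cafeteria replicates 1 and 2.

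The other transport proteins, synthetases and caveolar proteins gave 7 higher and 8 lower of 15 tested, with a median of -0.02. At an unadjusted p under 0.05 there was 1 in each direction, beside 6.05% higher and 6.62% lower of all probe sets. Without standard replicate 1 there were 8 higher and 7 lower, with a median of 0.02. At that p 1 was then higher and 2 lower, beside 4.46% and 5.06% of all probe sets. Leaving out standard replicate 2 gave 1 and 1 at that p, beside 4.53% and 4.58%, and leaving out standard replicate 3 gave 1 and 0, beside 4.73% and 5.98%. With either cafeteria array left out, 7 were higher and 8 lower. The caveolin Cav2 differed by 0.39 ± 0.09, and the synthetase Acsbg1 by -1.14 ± 0.35. The transport protein Slc27a3 differed by 0.63 ± 0.25, which became 1.00 with cafeteria replicate 1 left out and 0.25 with replicate 2 left out. The mitochondrial synthetase Acsm5 differed by -0.56 ± 0.22, and by -0.25 and -0.88 without cafeteria replicates 2 and 1.

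The nuclear and membrane receptors that respond to fatty acids, with their partners, gave 6 higher and 6 lower of 12 tested, with a median of 0.01. At an unadjusted p under 0.05 the list had 1 in each direction, beside 6.05% higher and 6.62% lower of all probe sets. The oxysterol receptor Nr1h2 differed by -0.30 ± 0.08, the coactivators Ppargc1b by 0.33 ± 0.12 and Ppargc1a by -0.33 ± 0.24, and the receptor Ppard by -0.19 ± 0.08 (limma, adjusted p from 0.301 to 0.535). Ppargc1a gave -0.13 without standard replicate 3 and -0.19 without cafeteria replicate 2, and Ppard -0.10 without cafeteria replicate 1. The list's median was -0.0032 without standard replicate 1 and 0.12 without cafeteria replicate 1. With a standard array left out, the counts at that unadjusted p were 0 or 1 in each direction. Of all probe sets, 4.46% to 4.73% were then higher and 4.58% to 5.98% lower. None of the genes named in these lists passed the test over all probe sets.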

How the data were processed

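The values are log2 expression levels, 1 per probe set and array, as deposited by the authors; the submitters' processing notes name RMA and affy, without versions. RMA makes array distributions alike and can hide a shift common to most transcripts. Groups follow the diet named in each title, and scan batches were not known.

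The 57 control probe sets of 31099 were left out, and the filter on the mean was applied before limma 3.58.1 in R 4.3.3 (lmFit, eBayes, default settings, two-sided, Benjamini-Hochberg at 0.05; 3 residual and 1.50 prior degrees of freedom). Each limma p weighs a difference against the spread between these samples, moderated over all probe sets tested. Whether that is a spread between single rats is not known. Each SE comes from this fit. Single values had an exact permutation test. Figures used matplotlib 3.10.9 in Python 3.11.15.

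Symbols came from GEO's platform annotation, and all 10 matched RefSeq by gene identifier. Members and lists were chosen with earlier results of these data known. Genes named were all members, up to 4 per pathway list by smallest unadjusted p, and the 5 nearest to Fabp3. Up to 3 per marker list, and more for striated muscle, were picked after their values were seen. The Fabp genes below the filter were also named after their values were seen. Alternatives were other filters, normalizations, variance models, weights, a replicate block and each array left out.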

Additional observations from a re-analysis of the deposited data

How the results depend on the processing

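With 2 arrays against 3, precision is low. Over 13 alternatives, the 12 probe sets tested gave 156 values, of which 154 kept their direction and 0 were called. Fabp3 had an adjusted p between 0.135 and 0.489, and 0 probe sets of the whole array were called in any alternative. The 2 reversals were Cd36 and Acsl4. The other filters and variance models leave the difference itself unchanged, so the direction kept under them was fixed in advance. The replicate block gave the same differences as leaving out standard replicate 3, so it adds no separate value. With an array left out, Cd36 ranged from -0.043 to 0.42, with the lowest value without cafeteria replicate 2, and Acsl4 from -0.065 without cafeteria replicate 2 to 0.0095 without cafeteria replicate 1. With an array left out, the probe sets at an unadjusted p under 0.05 numbered 1981 to 4171 against 2754, the highest without cafeteria replicate 1, and those of the 10 genes higher at that level 2 to 6 against 5. With no filter, 1 was lower at that level, the brighter Acsl5 probe set, against 0. Fabp3 against Fabp4 ranged from 1.27 to 1.71, and Fabp3 against Fabp5 from 1.77 to 2.04, with an array left out; other pairings of probe sets were not run because each gene has 1. The median over all probe sets lay between -0.0179 and 0.0178 in all of these alternatives. The titles number the samples, but nothing says that a number pairs rats. The deviations of same-numbered arrays from their group means correlated at 0.08 and -0.04. With 2 cafeteria arrays these deviations mirror each other, so the correlations cannot decide on pairing. With the replicate block, in which standard replicate 3 has no partner, Fabp3 differed by 1.76, Fabp3 against Fabp4 by 1.49 and Fabp3 against Fabp5 by 1.95, with 0 probe sets called and 2206 at an unadjusted p under 0.05. Of the 10 genes, 5 probe sets were higher at that level under the block, as without it, with Fabp4 in place of Acsl3. Leaving out arrays was applied to the lists after seeing the data. Without standard replicate 1, the numbers of higher genes were 8 of 12, 8 of 15, 11 of 13, 6 of 12 and 12 of 15 in the lists of lipase partners, transporters, binding proteins, sensors and esterification.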

Other observations

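Fabp4 and Fabp5 lie together on chromosome 2 of GRCr8, in the order Fabp12, Fabp4, Fabp9, Pmp2, Fabp5 among protein-coding genes, and Fabp3 lies on chromosome 5. Within that group only Fabp4 and Fabp5 passed the filter. Fabp12, Fabp9 and Pmp2 read between 3.42 and 3.66 in the means of both diets. Around Fabp3, the adjoining genes Serinc2 and Zcchc17 differed by 0.06 and 0.17 between diets, and Snrnp40 by -0.08. Tinagl1, the third protein-coding gene upstream, differed by 0.39. Nkain1, the third protein-coding gene downstream, differed by 0.98 and read 7.28 in cafeteria against 6.30 in standard samples. Nkain1 was singled out after its value was seen.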
